A study of Caenorhabditis elegans with 2 samples.

Results

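The nuclear respiratory chain genes described here are 37 genes of Caenorhabditis elegans that encode subunits of the mitochondrial complexes I to V or cytochrome c. They were taken from a fixed list of names, whether or not precipitated DNA lay beside them, out of 19973 nuclear protein-coding genes. The list holds 8 genes of complex I, 4 of complex II, 7 of complex III, 7 of complex IV, 9 of complex V and 2 cytochrome c genes. The assay was chromatin immunoprecipitation with sequencing, with an anti-GFP antibody, of the zinc finger protein SYD-9 fused to a GFP-FLAG tag at its C-terminus. Both samples were whole hermaphrodites of strain OP488, which carries unc-119(tm4063) III and the insertion wgIs488, taken as late embryos 4 h after synchronisation by bleaching. They are 2 biological replicates of 1 group, from 1 transgenic strain, and the promoter that drives the fusion is not given in the sources used here. Since whole embryos were used, the cells that gave a signal cannot be told apart. No precipitation from worms without the tag was analysed here, so signal through SYD-9 and signal that the antibody gives without it cannot be told apart at any gene below.

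The respiratory chain sits in the inner mitochondrial membrane. Complexes I and II take electrons from NADH and succinate and pass them through ubiquinone to complex III, from which cytochrome c carries them to complex IV, where oxygen is reduced. Complexes I, III and IV pump protons, and complex V, the ATP synthase, uses the gradient to make ATP. Most subunits are encoded in the nucleus and imported, while a few core subunits are encoded on mitochondrial DNA, so both genomes supply the parts of complexes I, III, IV and V. SYD-9 is known mainly from C. elegans neurons, where it acts in the organisation of synaptic vesicles.

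The DNA around 2 summits shows what the signal lies on, for cox-6B, a cytochrome oxidase gene whose region passed the authors' threshold for agreement between replicates, the irreproducible discovery rate (IDR), and for ucr-2.2, whose region came just below it. A summit is the position of highest signal within a region. Each stretch below is at most 300 bases of the ce11 build (WBcel235) around the summit, on the strand of the gene, cut short where an annotated untranslated region begins. Capitals mark matches, on either strand, to the word GAGAGA, the word ACGCAG or the word CGTCTC. These words were chosen over all nuclear IDR regions for large differences in number between the summit and a flank. The flank was a window 200 to 300 bp from the summit, on the side of lower coordinates only.
cox-6B, chrIII:2785949-2786199, plus strand: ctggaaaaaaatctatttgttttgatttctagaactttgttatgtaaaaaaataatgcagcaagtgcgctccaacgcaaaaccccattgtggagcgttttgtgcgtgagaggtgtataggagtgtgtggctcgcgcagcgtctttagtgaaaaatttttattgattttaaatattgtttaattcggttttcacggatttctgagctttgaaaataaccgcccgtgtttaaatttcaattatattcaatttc
ucr-2.2, chrX:15173637-15173792, plus strand: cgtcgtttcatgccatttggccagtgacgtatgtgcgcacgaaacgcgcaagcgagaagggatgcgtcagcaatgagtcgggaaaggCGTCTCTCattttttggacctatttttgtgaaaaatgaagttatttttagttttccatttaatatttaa
In the ucr-2.2 stretch the summit is base 7, and the capitals start 81 bases further towards the gene. The capitals read CGTCTCTC, in which CGTCTC and the reverse complement of GAGAGA overlap by 4 bases. The cox-6B stretch, with its summit at base 121, holds none of these words.

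A gene was counted as having a summit when one lay within 500 bp of any of its annotated 5' ends. The authors deposited a list for each replicate, a list for the pooled data and the IDR list, which retains regions that rank alike in both replicates. By their file labels, the replicate and pooled lists hold peaks together with background. The 941 regions of the IDR list were the 941 of the pooled list with the highest signal value. The signal value is the authors' peak caller score against a control, on a scale that is not given, and it ran from 95.2 to 932.3 in the IDR list. The files hold no read counts, so the depth of each replicate is unknown and values are given per replicate in place of an error.

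Subunit genes of the chain had summits in every list, in a larger share than protein-coding genes at large. In the IDR list 6 of 37 (16.2%) had a summit, against 2.44% of all nuclear protein-coding genes. In the pooled list 23 (62.2%) had one, against 20.4%. That list holds background too, and both shares count its weak regions. The deposited -log10 q, low for weak regions, ran from 0.0308 (lpd-5) to 1.92 (cyc-1) at the members' nearest pooled summits. It was 0.0875 or less at cox-7C, mev-1, sdha-1, cox-6C, nuo-1, asb-2, sdhd-1, gas-1 and lpd-5. In the replicate 1 list the count was 22 (59.5%), against 17% of all genes, and in the replicate 2 list it was 25 (67.6%), against 26.6%. A summit in both replicate lists was found at 18 members (48.6%) and at 11.9% of all genes. The summits of the 2 replicates need not lie at the same place. At cox-7C they lay 402 bp downstream in replicate 1 and 428 bp upstream in replicate 2. The list was drawn up with earlier results of these data known, so the shares are set side by side without a test.

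The 6 genes with an IDR summit were cox-5A, cox-5B and cox-6B of complex IV, nuo-2 of complex I, cyc-1 of complex III and atp-1 of complex V. The remaining members split into 17 with a pooled summit but no IDR summit, 6 with a summit in a replicate list alone and 8 with none in any list. The scores of these 6 lay close to those at other genes with an IDR summit. Their median signal value was 126, with a range of 101 to 163, and that of the 487 protein-coding genes with an IDR summit was 128. In the pooled list the median over the 23 members was 55.5, against 46.9 over 4080 genes, and the median member summit scored above 72.7% of the regions of the list, against 55.7% for all genes.

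**Figure D1:**
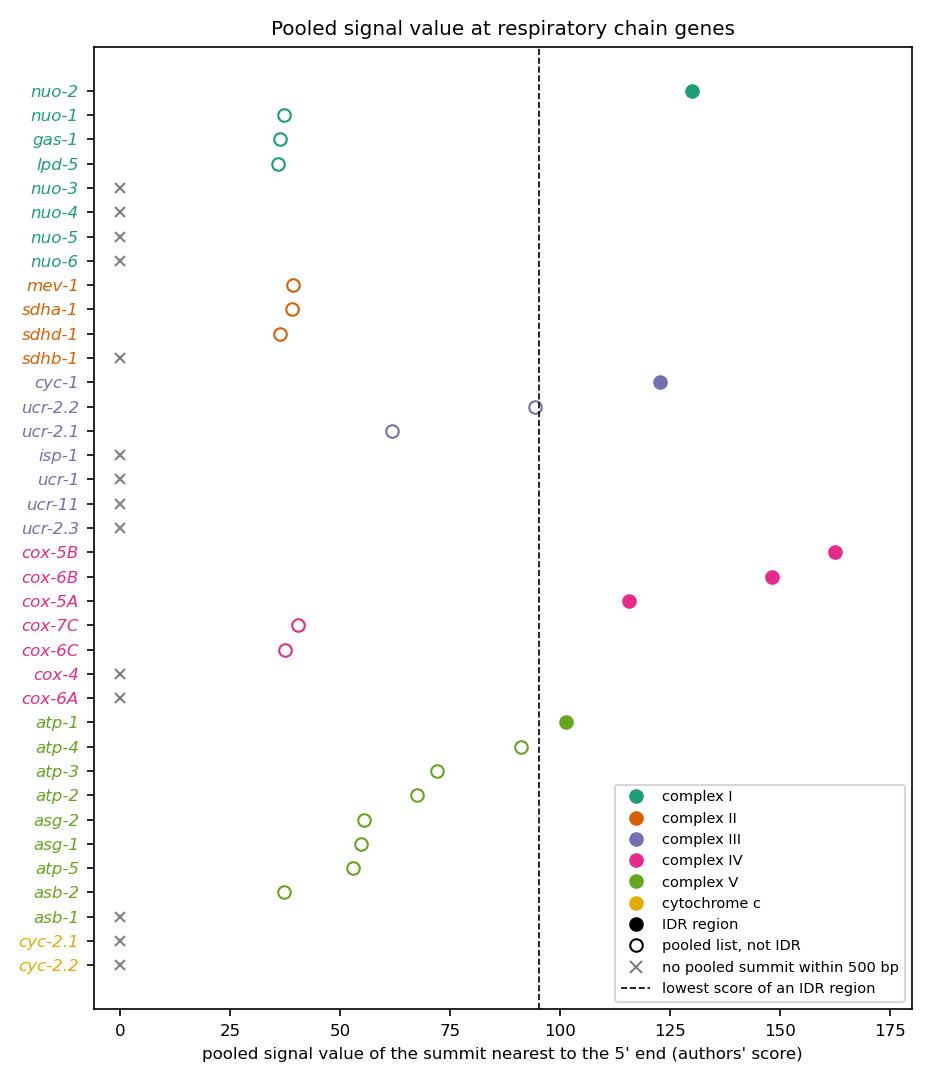
Pooled signal value (authors' score, horizontal axis) of the summit nearest to the 5' end for each of the 37 genes, coloured by complex. Filled circles are IDR regions, and open circles are regions in the pooled list but not in the IDR list. Crosses at 0 mark genes with no pooled summit within 500 bp, and the dashed line is the lowest score in the IDR list (95.2). Filled circles belong to complexes I, III, IV and V, with 3 in complex IV, and ucr-2.2 and atp-4 sit just left of the line.

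**Figure D2:**
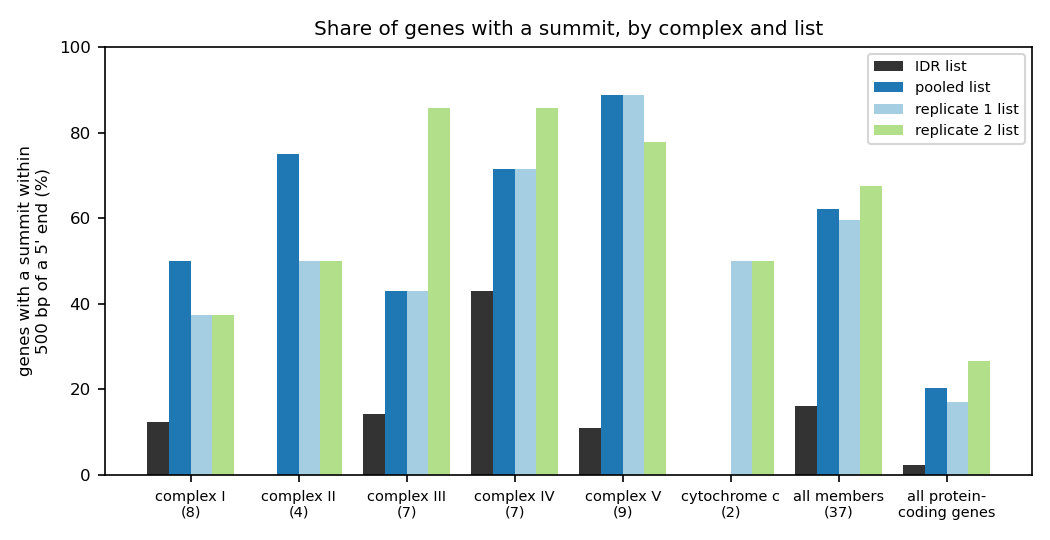
Percentage of genes (vertical axis) that had a summit no more than 500 bp from a 5' end, in the IDR, pooled, replicate 1 and replicate 2 lists, for each complex (number of genes in brackets), for all 37 members and for all nuclear protein-coding genes. The IDR bar reaches 42.9% in complex IV and is at 0 in complex II and cytochrome c, and in the pooled list complex V has 88.9%.

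Complex IV, cytochrome c oxidase, had 3 of its 7 members in the IDR list, the most of any complex. The highest score of any member was at cox-5B, on chromosome I (9788527 to 9788986), with the summit 32 bp downstream of a 5' end, in the gene's 5' untranslated region. It scored 163 in the pooled data, 65.5 in replicate 1 and 93.9 in replicate 2, and ranked 266 of the 13472 pooled regions. Its summit lay within 5 bp of the same place in both replicates. At cox-6B, on III (2785839 to 2786298), the summit lay 133 bp upstream, with a score of 148 and replicate scores of 69.5 and 74.2. The annotated 5' end of Y71H2AM.20, on the opposite strand, lay 121 bp from that summit and so slightly nearer than cox-6B. An Ensembl transcript of cox-6B starts far upstream, which places the summit in an intron of that model, while RefSeq has the short gene only.

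At cox-5A, on III, the summit lay 331 bp upstream, with a score of 116. Replicate 1 had a summit 5 bp away (61.1) and a second, weaker summit nearer to the gene, 133 bp upstream (32.7). Replicate 2 had 1 summit, 335 bp upstream (56.0). The main summit therefore lay at the same place in both replicates, although replicate 1's summit nearest to the gene is another one. The genes cox-6C and cox-7C were in the pooled list with scores of 37.5 and 40.5, near the lowest pooled score of 34.6. A stronger pooled summit lay 488 bp upstream of cox-6C, with a score of 77.2. The cox-7C summit was nearer to the 5' end of F26E4.4 on the opposite strand, at 170 bp, than to that of cox-7C, at 437 bp. The gene cox-4 had a summit in the replicate 2 list alone (17.8, near the list's lowest score of 16.9), and cox-6A had none within 500 bp, its nearest pooled summit being 748 bp upstream.

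Complex V, the ATP synthase, had 1 of 9 members in the IDR list and 8 of 9 in the pooled list. The gene atp-1, which encodes the alpha subunit of the catalytic head, had its summit 25 bp upstream of the 5' end, on I (12652022 to 12652481), with a score of 101, and with 47.6 in replicate 1 and 54.3 in replicate 2. It was the lowest-scoring of the 6 IDR members, 6.13 above the lowest score in the list. The replicate summits lay 5 and 54 bp downstream of the 5' end. The 5' end of mcrs-1, on the opposite strand, lay 165 bp from the pooled summit.

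Among the ATP synthase genes outside the IDR list, atp-4, which encodes coupling factor 6, scored highest, with 91.1 in the pooled data, 4.01 below the lowest IDR score. Its summit lay 489 bp upstream, in the 3' untranslated region of alh-4, and scored 47.8 in replicate 1. In replicate 2 the summit at this place scored 40.7 and was 528 bp from the 5' end, just past the distance limit. The gene atp-3, for the oligomycin sensitivity conferral protein, had 72.0 in the pooled data, with 34.5 in replicate 1 and 38.3 in replicate 2. The gene atp-2, for the catalytic beta subunit, had 67.5, with 27.6 and 37.7. Both genes thus had a region in each replicate that was weaker than those of atp-1.

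The other members of complex V with a pooled summit were asg-2, asg-1, atp-5 and asb-2, which encode subunits g, d and b of the stalk and membrane part. At asg-2 the pooled score was 55.5, with 26.7 in replicate 1 and 30.8 in replicate 2. At asg-1 it was 54.7, with 30.3 and 20.1, so the replicates differed in which gene was higher. The scores at atp-5 and asb-2 were 53.1 and 37.2. Of these, asg-1 and atp-5 had summits that lay nearer to another gene on the opposite strand. The summit at asg-1 was 38 bp from the 5' end of mrps-15, a mitochondrial ribosomal protein gene, and that at atp-5 was 88 bp from the 5' end of lmtr-3. The paralogue of asb-2, asb-1, was the only ATP synthase gene on the list with no pooled summit, and it had a summit in the replicate 2 list alone, 406 bp downstream of its 5' end (20.9).

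Complex III, which passes electrons from ubiquinol to cytochrome c, had 1 of 7 members in the IDR list and 3 in the pooled list. The IDR member was cyc-1, the cytochrome c1 gene, on I (8024496 to 8024955), with an intergenic summit 304 bp upstream and a score of 123. Replicate 1 gave 68.3 and replicate 2 gave 53.4, at summits 5 bp or less from the pooled one. In replicate 2 the cyc-1 region ranked 1010, outside the 941 highest. The core protein gene ucr-2.2, on X (15173413 to 15173872), had a pooled score of 94.3, which is 0.847 below the lowest IDR score. Its intergenic summit lay 261 bp upstream, with 43.9 in replicate 1 and 49.1 in replicate 2. Its rank in the pooled list was 954, and in replicate 1 it was 935. The step from atp-1 to ucr-2.2 across the IDR limit was thus small next to the range of the members' scores.

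The 3 genes for core protein 2 differed in their signal. After ucr-2.2, ucr-2.1 had 61.8 in the pooled data, with 31.4 in replicate 1 and 28.0 in replicate 2, and its summit was 56 bp from the 5' end of nmat-1 on the opposite strand and 330 bp from its own. The gene ucr-2.3 had a summit in the replicate 2 list alone (19.7). The Rieske iron-sulfur protein gene isp-1 and ucr-1, for core protein 1, also had summits in replicate 2 alone, with 18.9 and 17.4. These 3 scores lie at the low end of replicate 2, whose list is the longest, with 20425 regions against 10468 in replicate 1.

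Complex I, the NADH dehydrogenase, had 1 of 8 members in the IDR list and 4 in the pooled list. The IDR member was nuo-2, whose annotated product name is NADH dehydrogenase iron-sulfur protein 3. Its region, on I (6531927 to 6532386), had a score of 130, with 63.1 in replicate 1 and 64.4 in replicate 2. Its summit lay 194 bp upstream, in the 3' untranslated region of T10E9.14, the gene before it on the same strand, whose end lies 19 bp from the 5' end of nuo-2. The other genes of complex I were near the lowest score of the pooled list or absent from it. Pooled scores were 37.2 at nuo-1, 36.4 at gas-1 and 36.0 at lpd-5, against 34.6 for the lowest region of the pooled list. Of these, nuo-1 had a summit in both replicates, with 23.1 in replicate 1, above 33.9% of the list, and 17.5 in replicate 2, above 6.59%. At gas-1 there was a summit in replicate 2 alone (20.02), above 31.0% of the list. At lpd-5 there was one in replicate 1 alone (25.6), above 53.3% of the list. No list had a summit within 500 bp of nuo-3, nuo-4, nuo-5 or nuo-6, whose nearest pooled summits lay 3005, 788, 4113 and 9945 bp away.

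Complex II, succinate dehydrogenase, had no IDR summit at its 4 genes, which also belong to the tricarboxylic acid cycle. Pooled summits lay nearest to the 5' ends of mev-1 (39.2), sdha-1 (39.0) and sdhd-1 (36.5), while sdhb-1 had none in any list and its nearest pooled summit was 2723 bp away. A higher pooled summit lay 120 bp upstream of mev-1, the cytochrome b560 subunit gene, with a score of 80.8, and with 38.4 in replicate 1 and 41.4 in replicate 2. At the summit nearest to the gene, 67 bp downstream, replicate 1 had 26.5. The stronger summit ranked 1350 in the pooled list and was the strongest summit at a complex II gene. The sdha-1 summit lay inside the snoRNA gene D2021.6 on the same strand.

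Neither cytochrome c gene had an IDR or pooled summit. At cyc-2.1 each replicate list had a summit, but at different places, both inside the gene. Measured from the inner of its 2 annotated 5' ends, they lay 230 bp downstream in replicate 1 (24.4) and 58 bp upstream in replicate 2 (35.7). Its paralogue cyc-2.2 had no summit within 500 bp in any list, the nearest pooled one being 4131 bp away. The groups hold 2 to 9 genes each, and the differences between them were not tested.

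Most members' summits lay upstream of the gene, as did most summits at other genes. Of the 23 pooled summits, 20 (87.0%) lay upstream, at a median position of -199 bp, against 67.1% and -107 bp over the 4080 genes with a pooled summit. In the IDR list 5 of 6 lay upstream, at a median of -163.5 bp, against 90.3% and -205 bp over the 487 genes. The exceptions in the pooled list were cox-5B, atp-3 and mev-1, at 32, 21 and 89 bp downstream of the nearest 5' end.

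**Figure D3:**
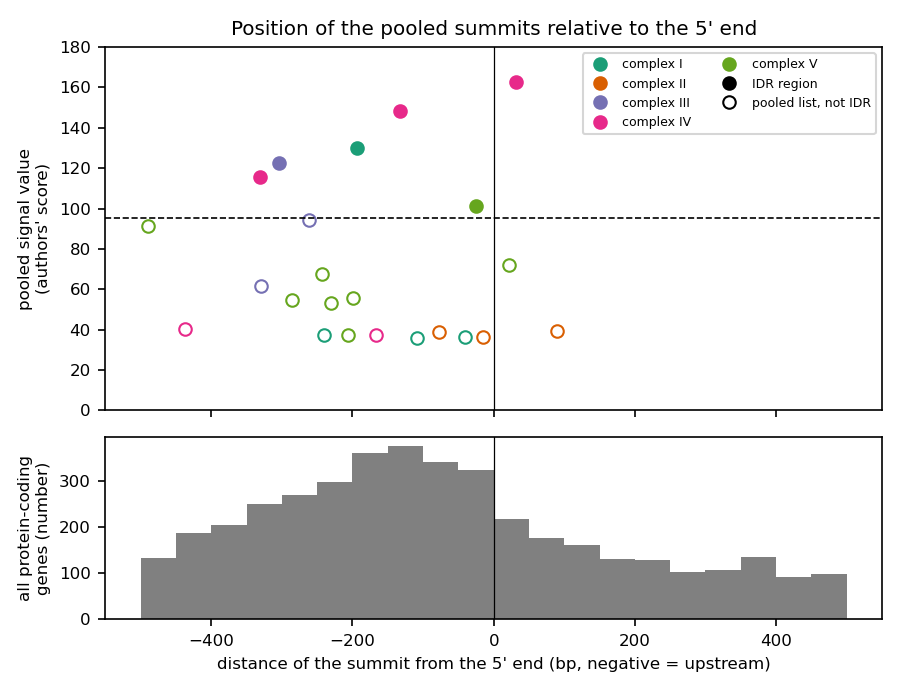
Distance of the nearest pooled summit from the 5' end (horizontal axis, bp, negative values upstream) against its pooled signal value for the 23 members (upper panel, filled circles for IDR regions, dashed line at the lowest IDR score of 95.2), and the number of all protein-coding genes in bins of the same distance (lower panel). Members lie mostly upstream, and cox-5B, atp-3 and mev-1 are the points to the right of 0.

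Many of these summits sat in promoters shared with a gene on the other strand. Of the 23 pooled summits, 12 (52.2%) lay within 500 bp of a 5' end on the opposite strand, against 857 of the 4080 summits at all genes. The genome itself pairs these genes more often: 13 of 37 members (35.1%) have an opposite-strand 5' end within 500 bp of their own, against 10.4% of all genes. In the IDR list 2 of 6, cox-6B and atp-1, shared their summit in this way, against 36.1% of all genes with an IDR summit. At the shared promoters the summit cannot be assigned to 1 of the genes from its position.

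The IDR members lay on chromosomes I and III. On I they were 4 of 11 members, against 3.44% of all genes there, and on III they were 2 of 9, against 3.07%. None of the 3 members on II, 4 on IV, 4 on V and 6 on X had an IDR summit, against 2%, 2.47%, 1.58% and 2.86% of the genes there. Pooled summits were at 8 of 11 members on I, 2 of 3 on II and 4 of 9 on III. The counts were 1 of 4 on IV, 2 of 4 on V and 6 of 6 on X. The shares of all genes on I to V and X were 25.7%, 20.9%, 24.9%, 18.6%, 14.3% and 23.3%. On X, the scores at gas-1 (36.4), asb-2 (37.2) and sdha-1 (39.0) were near the pooled list's lowest of 34.6.

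Members that follow closely behind another gene on the same strand formed a separate case, chosen after the values were seen. In C. elegans many such neighbours are transcribed together as operons, although operons are not marked in the annotation used here. There were 10 members (27.0%) whose 5' end lay within 500 bp of the end of a gene before them, against 18.7% of all genes. Of these 10, nuo-2 and cyc-1 had an IDR summit of their own, against 48 (1.28%) of the 3738 genes with such a neighbour. A further pair had an IDR summit at the gene before them, against 141 (3.77%) of the 3738. At either gene there was an IDR summit for 4 of the 10, against 186 (4.98%). Upstream of cyc-2.1 lies rpl-20, a ribosomal protein gene, with 110 bp between them. An IDR summit with a score of 163 lay 271 bp upstream of rpl-20 and 1037 bp from the outer 5' end of cyc-2.1. Upstream of ucr-11, a small subunit of complex III, lies dad-1, with 101 bp between them, and an IDR summit with a score of 142.5 lay 387 bp upstream of dad-1 and 1298 bp from ucr-11. Both replicates had these summits, with 77.1 and 64.7 at dad-1 and 65.9 and 94.2 at rpl-20. Both scores exceed those of nuo-2 and cyc-1, yet by distance to their own 5' ends ucr-11 and cyc-2.1 count as without an IDR summit.

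The pooled summits of members were set against the regions of each replicate. Of the 23 pooled summits, 15 had a region of each replicate within 200 bp, 4 had a region of replicate 1 only and 4 of replicate 2 only. The same count over all genes was not made, and the pooled data come from these replicates. Nearest summits were used, so mev-1 and cox-6C each count for 1 replicate only. Their stronger pooled summits lay 120 and 488 bp upstream. Near these, both replicates had a summit (136 and 118 bp upstream at mev-1, 495 and 460 bp at cox-6C). At the 6 IDR members the replicate 1 region scored above 92.6% to 96.9% of its list, and the replicate 2 region above 95.1% to 98.7%. Of these 6 members, 4 were among the 941 highest regions of both replicates, and cyc-1 and atp-1 were so in replicate 1 only. The count over all genes was made otherwise, from any summit of each replicate within 500 bp of a 5' end, whether or not at 1 place. By that measure, 323 (1.62%) of all nuclear protein-coding genes had a summit among the 941 highest regions of both replicates. An IDR summit was found at 487. The members' ranks were fixed in part by the choice of the IDR list, which was made from both replicates. By position, the replicate summits lay 0 to 79 bp from the pooled summit at these 6 members, the 79 bp being atp-1 in replicate 2. At atp-2, outside the IDR list, they lay 3 and 14 bp away. The asg-1 region scored above 73.5% of the list in replicate 1 and 31.2% in replicate 2, and the atp-5 region above 35.5% and 67.5%.

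**Figure D4:**
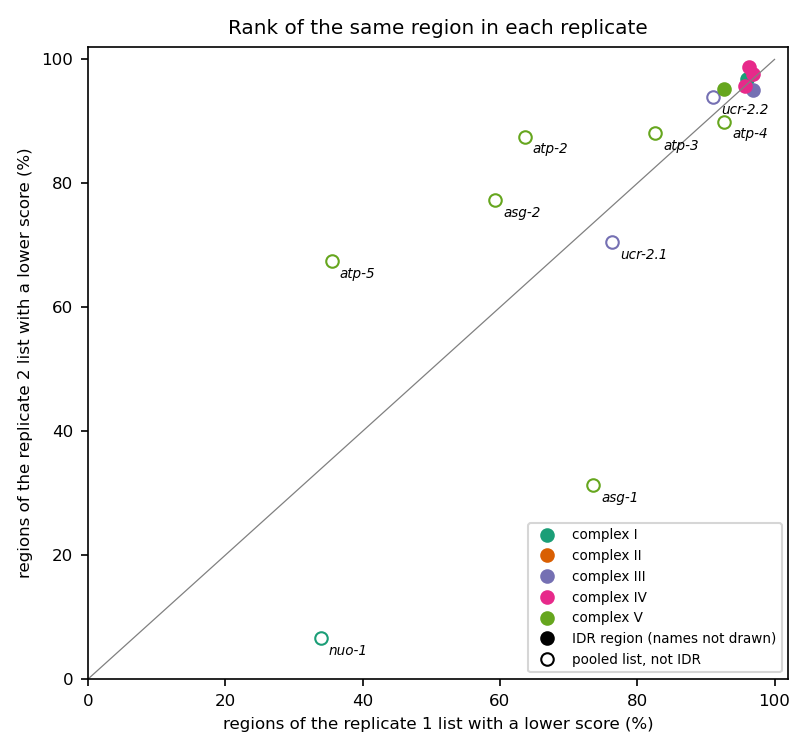
Share of regions with a lower score (percent) in the replicate 1 list (horizontal axis) and in the replicate 2 list (vertical axis) for the 15 members whose pooled summit had a region of each replicate within 200 bp, with the line of equal shares. The 6 IDR members, drawn as filled circles, sit in the upper right corner above 92%, and asg-1 and atp-5 lie farther from the line, and nuo-1 lies low in both lists.

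The words chosen for the centre of IDR regions at large differed in how often they occurred at these genes. Their shares at the centre of all IDR regions are high in part through that choice. Within 50 bp of the summit, the word GAGAGA was found at 28.2% of the 923 nuclear IDR regions and at none of the 6 IDR members, ACGCAG at 14.4% and at cyc-1 alone, and CGTCTC at 157 of the 923 and at none of the 6. Both strands were searched, and CGTCTC and GAGAGA can overlap, as in the ucr-2.2 stretch printed above. Within 300 bases around the summit, the shares over all IDR regions were 53.8%, 28.7% and 36.0%, and each word was at 1 of the 6 IDR members. At the 23 pooled member summits GAGAGA was within 50 bp at 2, against 13.4% of all nuclear pooled regions, and within 300 bases at 4 (17.4%), against 29.8%. The word ACGCAG was within 50 bp at 3, cyc-1, atp-3 and asb-2, against 5.56%, and no further member held it within 300 bases, against 12.9%. The word CGTCTC was within 50 bp at 1, sdhd-1, against 7.65%, and within 300 bases at 7 (30.4%), against 18.4%. The share at members was thus below that of pooled regions for GAGAGA at both widths and on either side of it for CGTCTC. For ACGCAG it was above near the summit and about equal within 300 bases (13.0% against 12.9%). Within 50 bp these shares rest on 1 to 3 of the 23 summits, and the differences were not tested. Over the 300 bases before the 5' end of every protein-coding gene, the shares were 21.6%, 8.43% and 10.7%. The longer word CGTCTCTC was picked after it was seen in stretches around member summits. It occurred within 300 bases around 3 of the 23 pooled member summits, those of ucr-2.2, sdhd-1 and cox-5A. Over all nuclear pooled summits it occurred at 455 of 13454 (3.38%). The members that the word was taken from are in the count, so the 2 shares cannot be compared. The base composition around the IDR members ranged widely, from 32.7% G and C at nuo-2 to 55.4% at cox-5B within 101 bases, with a median of 47.0% against 52.5% for all nuclear IDR regions.

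Other genes that serve the chain had few IDR summits. Of 81 listed genes in 5 groups, 66 matched the annotation, and 2 of these (3.03%) had an IDR summit, a share near the 2.44% of all genes. Both belong to protein import: hsp-6, the mitochondrial Hsp70, with 127 at 375 bp upstream, and mtx-1, a metaxin gene, with 104 at 365 bp upstream. In the IDR list there was no summit at the 24 assembly and maturation genes, the 8 genes of ubiquinone synthesis, the 10 further subunit and inhibitor genes or the 5 carrier genes. In the pooled list 20 of 66 (30.3%) had a summit, against 20.4% of all genes, and the subunit and inhibitor genes had 5 of 10. These 5 were nduf-6 (65.3), nduf-9 (66.2) and nduf-11 (70.2), which encode further complex I subunits, and mai-1 (72.7) and mai-2 (54.1), which encode inhibitors of the ATP synthase. The subunits encoded on mitochondrial DNA looked different: 9 of 12 had an IDR summit within 500 bp, in a short genome with 18 IDR regions. Among the summits nearest to these 9 genes the highest score was 836.6, at COX3. The number of copies of mitochondrial DNA per cell is not known from these files, and its part in these scores was not tested.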

How the data were processed

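ChIP-seq regions from 2 biological replicates of 1 group were analysed. Per the labels, DNA was sonicated and regions are in build ce11 (ce10 lists were not used). The signal value is a deposited score against a control, on an unstated scale. The deposited -log10 q-values were not used to select or count summits. The peak caller and the IDR threshold are not given in the sources used here, and no file gives depth. Summits are column 2 plus column 10, counted from 1. Distances were taken to all transcript 5' ends of Ensembl release 115 (WBcel235), with RefSeq 5' ends as an alternative, and all 37 members matched by symbol. Chromosome names and coordinates of ce11 and WBcel235 correspond. Sequences are from RefSeq WBcel235 (1 further stretch is not reported here), and 15 listed genes outside the 37 matched no annotated symbol. Where symbols of mitochondrial DNA genes did not match, all 12 of its protein-coding genes were used. Members and lists were chosen with earlier results of these data known, so no test was made. Values in every list are given for members with an IDR summit, for the 6 highest pooled scores among members in the pooled and both replicate lists, and for the member nearest to being bound in each class without an IDR summit. Other genes are named where their 5' end, or a small RNA gene, lies nearer to a member's summit or beside its IDR summit. T10E9.14, alh-4, dad-1 and rpl-20 were named after their values were seen. The nearest-summit step was tested on simulated data. Python 3.11.15, NumPy 2.4.6 and Matplotlib 3.10.9 were used.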

Additional observations from a re-analysis of the deposited data

How the results depend on the processing

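The count of 6 IDR members was also 6 at 1000 bp, with RefSeq 5' ends and with any overlap of a region with the window, and 4 at 250 bp, where cox-5A and cyc-1 dropped out. The 470 higher-scoring IDR regions kept 2 (5.41%), cox-5B and cox-6B. Over all genes the IDR share was 1.41% at 250 bp, 3.42% at 1000 bp and 1.18% with the 470 regions. With the 941 highest regions of 1 replicate in place of the IDR list, the count was 4 to 8: without replicate 1, cyc-1 and atp-1 were lost, and without replicate 2, ucr-2.2 and atp-4 were gained. Under the same settings all genes had shares of 2.12% and 2.55%. Among complexes, the IDR counts of complex III and complex V each ranged from 0 to 2 when a replicate was left out, and complex III had 0 at 250 bp; the complex IV count was 3 without either replicate. Limited to the 941 highest regions of each list, 6 members had a pooled summit, 8 a replicate 1 summit and 4 a replicate 2 summit, as fewer regions were used. The shares over all genes were then 2.44%, 2.55% and 2.12%. At 250 bp the replicate 2 count was 13 of 37 members, against 16.4% of all genes. Taking the highest in place of the nearest summit moved the median score to 67.5 in the pooled list and 33.0 in replicate 1. No paired analysis was possible because the series has 1 group. Depth is unknown, and a member without a summit was not detected in these lists, which does not show that it lacks signal.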
